A study of Mus musculus with 13 samples.

Results

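Growth hormone acts on the liver through its receptor and the transcription factors STAT5A and STAT5B, and 10 genes of this axis were measured in livers of Nod2-/- and WT mice. The members were fixed by name and matched to the deposited Ensembl identifiers: the receptor gene Ghr, the transducers Stat5a and Stat5b, the secreted products Igf1 and Igfals, the feedback inhibitors Socs2 and Cish, and the transcription factor genes Bcl6, Cux2 and Onecut1. All 10 were found among the 53465 genes of the table, and 9 of them were among the 13545 genes that passed the filter on low counts; Cux2 did not. Liver RNA came from 13 male mice of the inbred BALB/c strain, each with its own library. Both groups, 6 WT mice and 7 mice lacking the innate immune receptor gene Nod2, had been given DMBA, a chemical carcinogen, and were kept on a high-fat diet for 30 weeks according to the labels, and there was no untreated or chow-fed group among these libraries. The 2 genotypes were bred in one room but were not littermates, so genotype cannot be told apart from differences between the breeding lines. In the study, male Nod2-/- mice treated in this way gained more weight than WT males, and more of them had liver tumors. Effects of tumors or of weight therefore cannot be told apart from those of genotype in these values. As liver tissue is a mixture, fewer cells of a type and less RNA per cell cannot be told apart in any value below.

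When growth hormone binds GHR, the kinase JAK2 phosphorylates STAT5, which enters the nucleus and switches on Igf1, Igfals, Socs2 and Cish in hepatocytes. IGF1 circulates in a complex held together by the acid-labile subunit that Igfals encodes, and the proteins encoded by Socs2 and Cish dampen the receptor's signal. Growth hormone is released in pulses, with a male pattern of sharp peaks and a female pattern that is nearly continuous, and this pattern sets the sex-biased genes of the liver. Cish and Socs2 are early STAT5 targets whose transcripts follow the hormone quickly. BCL6 is a male-biased repressor that binds sites like those of STAT5, CUX2 is a female-biased liver factor, and ONECUT1 (HNF6) is a liver-enriched factor that growth hormone regulates.

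The promoter windows of 3 members are shown because these carry the letters TTCNNNGAA, the core of the STAT5 site, and because 2 of these genes moved in opposite directions from mouse to mouse. The search covered 16 RefSeq windows of 9 members (GRCm38.p6), each from 250 bases before to 50 after an annotated start; no window of Socs2 was used. The motif reads the same on both strands, and no match overlapped another. It was present in 5 of the 16 windows and in 8.3% of all 32851 windows of the same length. Capitals mark the matches, and positions count from the start site.

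Cish: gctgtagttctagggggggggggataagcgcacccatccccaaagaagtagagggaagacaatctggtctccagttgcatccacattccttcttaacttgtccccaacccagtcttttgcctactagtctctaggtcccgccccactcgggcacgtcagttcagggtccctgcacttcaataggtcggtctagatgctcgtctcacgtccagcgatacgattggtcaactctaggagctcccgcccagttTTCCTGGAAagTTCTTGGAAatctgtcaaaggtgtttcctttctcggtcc
Bcl6, first window: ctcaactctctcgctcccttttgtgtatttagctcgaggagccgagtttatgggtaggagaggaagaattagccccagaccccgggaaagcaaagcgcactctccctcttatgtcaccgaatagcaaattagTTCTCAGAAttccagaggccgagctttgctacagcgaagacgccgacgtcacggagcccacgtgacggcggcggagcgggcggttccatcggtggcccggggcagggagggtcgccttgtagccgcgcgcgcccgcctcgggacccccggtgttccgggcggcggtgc
Bcl6, second window: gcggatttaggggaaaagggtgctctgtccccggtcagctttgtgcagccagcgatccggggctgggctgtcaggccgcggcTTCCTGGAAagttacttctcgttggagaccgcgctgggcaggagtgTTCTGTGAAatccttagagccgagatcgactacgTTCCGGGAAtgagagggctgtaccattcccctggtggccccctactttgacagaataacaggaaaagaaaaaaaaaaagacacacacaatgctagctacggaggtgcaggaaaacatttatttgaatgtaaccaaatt
Igfals, first window: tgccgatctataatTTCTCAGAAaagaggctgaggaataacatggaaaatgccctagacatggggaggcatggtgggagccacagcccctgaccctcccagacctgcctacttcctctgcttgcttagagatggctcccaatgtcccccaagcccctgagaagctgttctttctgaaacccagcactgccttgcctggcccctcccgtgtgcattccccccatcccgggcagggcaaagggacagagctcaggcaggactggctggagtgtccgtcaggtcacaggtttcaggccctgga
Igfals, second window: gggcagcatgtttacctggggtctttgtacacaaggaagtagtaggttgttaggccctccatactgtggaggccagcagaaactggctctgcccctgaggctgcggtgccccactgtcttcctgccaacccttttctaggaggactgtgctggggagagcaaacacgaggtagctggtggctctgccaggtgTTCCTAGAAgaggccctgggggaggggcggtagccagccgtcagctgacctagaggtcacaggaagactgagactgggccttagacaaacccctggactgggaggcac

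The Cish window (chr9:107296409-107296708, plus strand) held 2 matches, beginning at the start site itself and 11 bases after it. At least 2 matches were found in 0.457% of all windows. The second Bcl6 window (chr16:23981234-23981533, minus strand) held 3 matches, 168, 122 and 88 bases before the start, which was the case for 11 windows or 0.0335% of all. The first Bcl6 window (chr16:23988803-23989102, minus strand) held 1 match, 118 bases before the start. For Igfals, the first window (chr17:24877594-24877893, plus strand) held 1 match 236 bases before its start and the second (chr17:24877981-24878280, plus strand) 1 match 58 bases before its start. A match is a description of these letters only, and the windows of Ghr, Igf1, Stat5a, Stat5b, Cux2 and Onecut1 held none.

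Between 13824780 and 20579984 reads were counted per library. Nod2 itself had 0 to 4 counts in WT and 1 to 6 in Nod2-/- mice, too few to check the genotype labels (two-sided exact permutation test, p = 0.385). Hepatocyte genes were abundant in every mouse (summed normalized counts of 9 markers 1331384 to 1859921 in WT and 1393962 to 2876714 in Nod2-/- mice), and of these 9 none passed in edgeR, while DESeq2 called 1 lower, the transcription factor gene Hnf4a (log2 fold change -0.34 ± 0.10 SE in edgeR, adjusted p = 0.0805 in edgeR and 0.00591 in DESeq2). Markers of other cells also moved. The sum of 14 neutrophil markers was 232.7 to 2244 in WT and 1153.8 to 71539.4 in Nod2-/- mice, with the highest value in replicate 7. Lcn2 made up most of this sum in every mouse, from 143.5 of 232.7 in WT replicate 1 to 53827.3 of 71539.4 in Nod2-/- replicate 7. It was 2112.1 in WT replicate 3 and 15765.5 in Nod2-/- replicate 4. The order of mice by this sum is therefore largely their order by Lcn2. The granule genes Ngp, Ltf, Camp, Elane and Mpo, which define maturing neutrophils, were at or near 0 in WT mice, at most 8.13 normalized counts, and 186.2 to 1271.1 in Nod2-/- replicate 7. Of 6 tested neutrophil markers, edgeR called 0 higher (0.65% of all genes) and DESeq2 called 4 higher (3.81% of all its genes). The sum of 10 lung epithelium markers was 473.6 to 3859.1 in WT and 465.3 to 1290.4 in Nod2-/- mice, with the highest values in WT replicates 4 and 2. DESeq2 called 4 of the 6 tested lung markers lower (3.45% of all its genes) and edgeR called 0 (0.509% of all genes). The surfactant gene Sftpc ranged from 105.6 to 1785.9 normalized counts in WT and from 7.84 to 250.5 in Nod2-/- mice. The airway marker Scgb1a1 was highest in WT replicate 4, at 203.9, and Scgb3a2 was at 0 in 9 of the 13 mice. Of 8 tested markers of cholangiocytes and progenitors, Sox9 was called higher in edgeR, as were 0.65% of all genes (log2 fold change 1.29 ± 0.25 SE, adjusted p = 0.0324). Sox9 had 24.1 to 77.8 normalized counts in WT and 77.0 to 164.4 across the Nod2-/- mice. Of 11 tested Kupffer cell and monocyte markers, 10 had positive log2 fold changes and 0 passed in edgeR or DESeq2. Some results, among them those of Ghr, Igfals, Onecut1 and Cyp17a1, are given with and without libraries high in neutrophil or lung markers. The part of all these cells in any result was not tested.

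Of the 9 members tested, 2 were lower in Nod2-/- mice and 0 were higher by edgeR's quasi-likelihood test at 5% FDR (Benjamini-Hochberg adjustment over 13545 genes). The lower members were Igfals, the IGF1 carrier subunit, and Onecut1, the HNF6 transcription factor. Over all genes tested, 0.509% were lower and 0.65% higher. By DESeq2, which called 3.45% of its genes lower and 3.81% higher, the same 2 members were lower and 0 were higher. Without adjustment, 4 members were lower and 1 was higher at p under 0.05, where 10.2% of all genes were lower and 12.9% higher. The median log2 fold change of the 9 members was -0.29, against 0.02 for all genes tested. The 9 hepatocyte markers had a median of -0.27, so a shift of this size was not particular to the members. Normalized counts below are counts scaled to the mean library size of the 13 mice, and log2 fold changes are for Nod2-/- against WT mice.

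**Figure D1:**
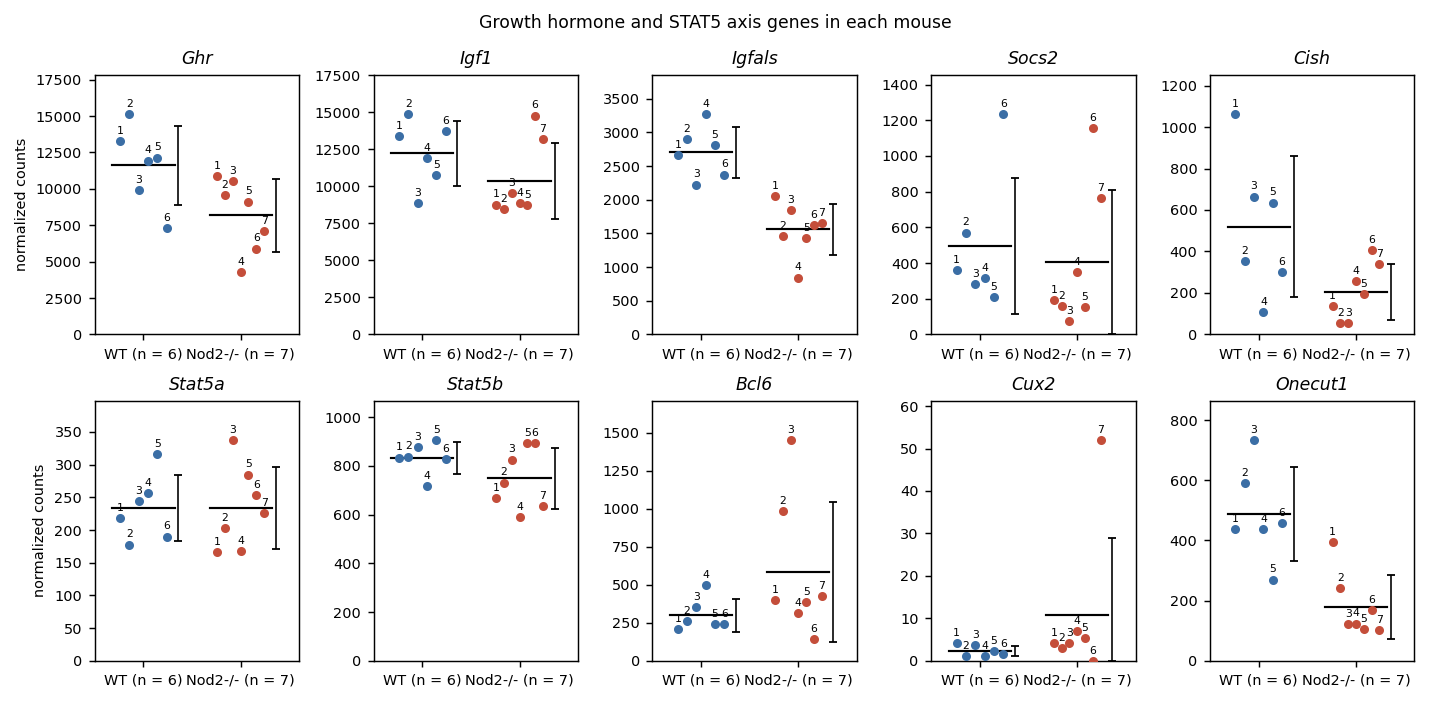
Normalized counts (vertical axis, starting at 0) of the 10 genes in each of 6 WT (blue) and 7 Nod2-/- mice (red), numbered by replicate; horizontal lines are means and bars 1 SD, drawn no lower than 0. The groups are separate for Igfals, nearly so for Onecut1, and overlap for the other genes.

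Ghr, the receptor, ranged from 7315.9 to 15126.3 normalized counts in WT mice (median 12045.5) and from 4266.2 to 10870.5 in Nod2-/- mice (median 9119.2). All 7 Nod2-/- mice were below the WT median, but only replicates 4, 6 and 7 were below the lowest WT mouse, replicate 6. The means were 11621.7 ± 2714.7 (SD, n = 6) and 8189 ± 2495.2 (SD, n = 7), a log2 fold change of -0.51 ± 0.22 (SE). Ghr did not pass the test in edgeR (adjusted p = 0.186) or DESeq2 (adjusted p = 0.12), and an exact permutation test of this gene alone gave p = 0.0402. That p was below 0.05 in 6 of the 13 comparisons without 1 mouse (range 0.0114 to 0.0884) and was 0.0513 on log2 CPM. Without both WT mice with the highest lung markers the log2 fold change of Ghr was -0.38 (adjusted p = 0.529 in edgeR).

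The transducers downstream of the receptor were alike in level in both groups. Stat5a had 233.7 ± 50.4 (SD, n = 6) normalized counts in WT and 234.1 ± 62.7 (SD, n = 7) in Nod2-/- mice, and its log2 fold change had a 95% interval of -0.35 to 0.35. Its sign turned with the normalization, the tool and the mouse left out. Stat5b, the more abundant STAT5 gene of the liver, had 833.3 ± 64.3 and 749 ± 124.1 normalized counts, a log2 fold change of -0.15 ± 0.11 (SE), adjusted p = 0.395 in edgeR. Among the members, Stat5b varied least among WT mice, with an SD of 7.72% of the mean. Changes of transcript level between these bounds remain possible, and STAT5 phosphorylation was not measured by these data.

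Igfals was the member that best separated the genotypes. It ranged from 2225.9 to 3271.5 normalized counts in WT mice (median 2739) and from 844.7 to 2053.8 in Nod2-/- mice (median 1623.7), so that every Nod2-/- mouse was below every WT mouse. Among the genes tested, 0.687% had Nod2-/- mice all below WT mice. The means were 2708.2 ± 377.3 (SD, n = 6) and 1560 ± 383 (SD, n = 7), a level of 0.576 of WT (log2 fold change -0.80 ± 0.16 SE, adjusted p = 0.0365 in edgeR and 0.000485 in DESeq2). The exact permutation test gave p = 0.000583, the smallest that 6 against 7 mice allow. The edgeR call depended on single mice. It was lost without WT replicate 1, 2, 4 or 5 (log2 fold changes -0.80, -0.78, -0.74 and -0.79). Leaving out Nod2-/- replicate 2, 6 or 7 also lost it (-0.79, -0.80 and -0.81). The adjusted p in these fits reached 0.0985. The exact permutation p was 0.00126 to 0.00216 in all 13 comparisons without 1 mouse. Without both WT mice with the highest lung markers the log2 fold change was -0.69 and did not pass, and without WT replicate 3 and Nod2-/- replicate 7, the neutrophil-rich library, Igfals passed.

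Igf1, the hormone that the Igfals product carries, did not pass the test. It ranged from 8838.7 to 14857.7 normalized counts in WT (median 12627.6) and from 8473 to 14766.1 in Nod2-/- mice (median 8866.5). In Nod2-/- mice, 5 values lay between 8473 and 9527.3, below all WT mice but replicate 3, and replicates 6 and 7 had 14766.1 and 13195.2. The log2 fold change was -0.24 ± 0.17 (SE), adjusted p = 0.39 in edgeR, and its 95% interval was -0.57 to 0.08.

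The feedback inhibitors Cish and Socs2 differed more between mice of the same genotype than the other tested members did, Bcl6 in Nod2-/- mice excepted. Cish ranged from 107.4 to 1061.9 normalized counts in WT mice (median 494.7) and from 54.5 to 405.1 in Nod2-/- mice (median 194.3). All 7 Nod2-/- mice were below the WT median, but WT replicate 4, at 107.4, was lower than 5 of them. The means were 520.3 ± 338.9 (SD, n = 6) and 206 ± 135.7 (SD, n = 7), a log2 fold change of -1.34 ± 0.51 (SE) that passed neither in edgeR (adjusted p = 0.145) nor in DESeq2 (adjusted p = 0.123). By an exact permutation test, p was 0.0373, and it stayed below 0.05 in 5 of the 13 fits that left out 1 mouse. Cish is among the genes the study tabulated from these same mice, so its difference is not independent evidence here. Exons of Cish overlap Gm17040 and Gm17041 on the opposite strand by 4.07% and 7.46% of their bases, and whether the counting used strand is not stated.

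Socs2 ranged from 211 to 1233.9 normalized counts in WT mice (median 338.3) and from 72.9 to 1157.2 in Nod2-/- mice (median 192.5). WT replicate 6 and Nod2-/- replicates 6 and 7, at 1233.9, 1157.2 and 765.4, were above all other mice. The log2 fold change was -0.29 ± 0.59 (SE), adjusted p = 0.801 in edgeR, and it turned to 0.22 without WT replicate 6 and was -0.81 without Nod2-/- replicate 6.

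Onecut1 was the other member that passed. It ranged from 269.6 to 732 normalized counts in WT mice (median 447.7) and from 102.9 to 393.4 in Nod2-/- mice (median 123.7). Nod2-/- replicates 2 to 7 were all below the lowest WT mouse, and replicate 1, at 393.4, was above WT replicate 5, at 269.6. The means were 487.6 ± 157.4 (SD, n = 6) and 179.6 ± 106.1 (SD, n = 7), a level of 0.368 of WT (log2 fold change -1.44 ± 0.32 SE, adjusted p = 0.0422 in edgeR and 0.000744 in DESeq2, exact permutation p = 0.00233). The edgeR call held in 3 of the 13 fits without 1 mouse, those without WT replicate 3 and Nod2-/- replicates 1 and 2. It was lost without any one of the other 5 WT mice (log2 fold changes -1.57 to -1.38) or Nod2-/- replicates 3 to 7 (-1.43 to -1.34), with adjusted p up to 0.111, and it was also lost without both lung-marker WT mice (-1.41) and without WT replicate 3 and Nod2-/- replicate 7 together (-1.19). The exact permutation p stayed at or below 0.00433 in all 13. Of the Onecut1 exon bases, 52.8% are shared with Gm20649 on the same strand, and that gene was listed with 0 counts in every mouse.

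Bcl6, the repressor, moved the other way in a few mice. It ranged from 207.1 to 496.6 normalized counts in WT mice (median 250.4) and from 141.1 to 1448.5 in Nod2-/- mice (median 396.6). Nod2-/- replicates 2 and 3, at 985.4 and 1448.5, were above all WT mice, and replicate 6, at 141.1, was below all of them. The log2 fold change was 0.97 ± 0.43 (SE), with an adjusted p of 0.2 in edgeR and 0.132 in DESeq2, and an exact permutation p of 0.201. Without Nod2-/- replicate 3 the log2 fold change was 0.56.

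Cux2 was near the floor of detection in 12 of the 13 mice. Raw counts were 1 to 4 in WT mice, 0 to 7 in Nod2-/- replicates 1 to 6 and 53 in Nod2-/- replicate 7, or 51.9 normalized counts. The groups were not separated by an exact permutation test (p = 0.217). That replicate also had the highest neutrophil markers; their part in its Cux2 value was not tested.

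**Figure D2:**
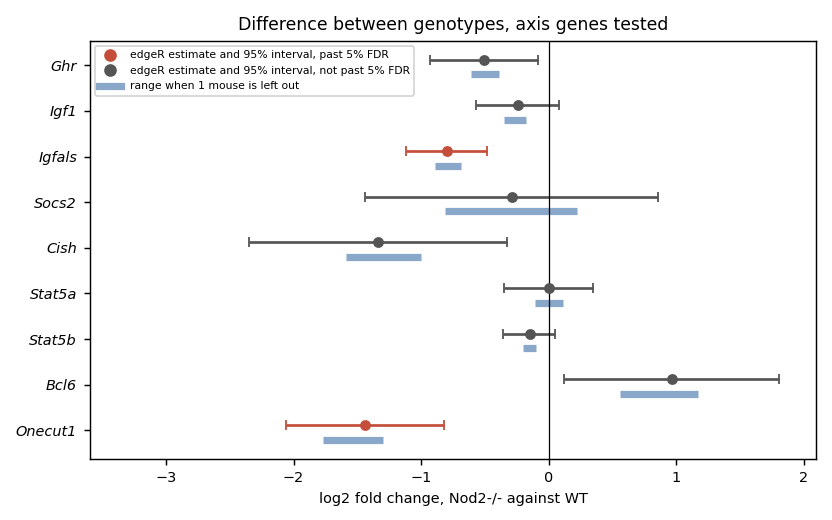
Log2 fold change (horizontal axis) of the 9 tested genes, with points and thin bars for the edgeR estimate and its 95% interval and thick bars for the range of estimates when 1 mouse is left out. Only Igfals (-0.80) and Onecut1 (-1.44) were past 5% FDR, and the range of Socs2 crosses 0.

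Levels were compared between genes as normalized counts per kilobase of exon. In WT mice the order was Ghr (1283.7 ± 299.9, SD, n = 6), Igf1 (1235 ± 222.2) and Igfals (855.1 ± 119.1), then Stat5b (150.4 ± 11.6), Onecut1 (118.5 ± 38.3), Cish (81.1 ± 52.8), Socs2 (52 ± 40), Bcl6 (44.7 ± 16.2), Stat5a (32.8 ± 7.06) and Cux2 (0.227 ± 0.128). Neighbours in this order overlapped between mice except for Igfals over Stat5b and Stat5a over Cux2. In Nod2-/- mice Igf1 (1043.1 ± 257.9, SD, n = 7) came before Ghr (904.6 ± 275.6), Bcl6 (87.3 ± 68.9) stood between Stat5b and Onecut1 (43.7 ± 25.8), and Cish (32.1 ± 21.1) stood next to last. Here too neighbours overlapped except for Igfals (492.6 ± 120.9) over Stat5b (135.2 ± 22.4) and Cish over Cux2. Differences in order between the groups were not tested.

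To ask whether members varied together from mouse to mouse, 8 pairs were correlated over the 13 mice on log2 CPM after the mean of each genotype was subtracted. The points of a pair come from the same libraries and share their depth. Bcl6 and Cish varied in opposite directions, with Pearson's r = -0.80 (permutation test, p = 0.00077, adjusted over 8 pairs 0.00616) and Spearman's rho = -0.63 (permutation p = 0.0252, adjusted 0.0775). The sign was the same within WT (r = -0.73) and Nod2-/- mice (r = -0.90). The mice with the highest Bcl6, Nod2-/- replicates 3 and 2, had the lowest Cish, 56.5 and 54.5 normalized counts, and WT replicate 4 had both the highest Bcl6 and the lowest Cish of its group. Without the 2 mice farthest in Bcl6, Nod2-/- replicates 3 and 6, r was -0.77 (permutation p = 0.009, adjusted 0.072). The rank relation was weaker there, with rho = -0.45 (permutation p = 0.173, adjusted 0.405). Neither passed the adjustment.

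Igf1 and Socs2 rose and fell together, with r = 0.77 (permutation p = 0.00203, adjusted 0.00812) and rho = 0.73 (permutation p = 0.00644, adjusted 0.0515). The sign was the same within WT (r = 0.65) and Nod2-/- mice (r = 0.83). Without Nod2-/- replicates 6 and 7, which were high in both genes, this relation no longer passed. There r was 0.43 (permutation p = 0.185, adjusted 0.37) and rho 0.51 (permutation p = 0.113, adjusted 0.405). Bcl6 and Socs2 had r = -0.71 (permutation p = 0.00541, adjusted 0.0144) and rho = -0.53 (permutation p = 0.0629, adjusted 0.126). Within WT mice r was -0.28 and within Nod2-/- mice -0.82. Without Nod2-/- replicates 3 and 6 r was -0.32 (permutation p = 0.338, adjusted 0.45), so that this relation too did not pass without 2 mice. Stat5a and Stat5b had r = 0.62 (permutation p = 0.0264, adjusted 0.0527; without 2 mice 0.56). Cish and Socs2, which share the role of feedback inhibitor, had r = 0.47 (permutation p = 0.11, adjusted 0.175), with r = 0.87 in Nod2-/- mice and -0.26 in WT mice. Ghr with Igf1 (r = -0.17), Igf1 with Igfals (r = 0.25) and Cux2 with Onecut1 (r = -0.33) did not pass.

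**Figure D3:**
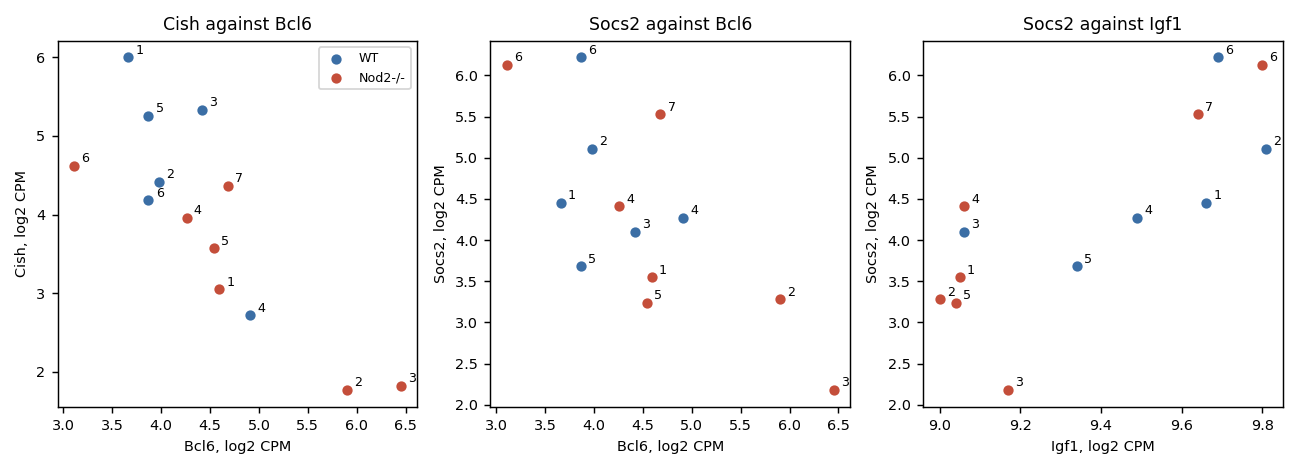
Log2 CPM of Cish against Bcl6, Socs2 against Bcl6 and Socs2 against Igf1 in the 13 mice (WT blue, Nod2-/- red, numbered by replicate). The genotype-centred r was -0.80, -0.71 and 0.77, and Nod2-/- replicates 3 and 6 lie at the ends of both Bcl6 plots.

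Over the 13 mice, without centring, the genes most like Cish were Foxa2 (r = 0.88), Phlda1 (0.86), Rgs3 (0.84), Rai2 (0.81) and Zfp689 (0.81), and those most like Socs2 were Dph5 (0.90), Fbxl17 (0.88), Dcaf6 (0.86), Asf1a (0.85) and Ackr2 (0.85). These are the highest of 13545 genes and are given as a description. None of these 10 genes passed the test between genotypes.

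The rest of the pathway was described with 4 lists of 111 genes, of which 94 were tested. In edgeR, 2 of the 94 were higher (0.65% of all genes) and 0 lower (0.509% of all genes). Without adjustment, 8 were higher and 18 lower at p under 0.05, where 12.9% of all genes were higher and 10.2% lower. By DESeq2, which called 3.81% of its genes higher and 3.45% lower, 4 genes of the lists were higher and 7 lower. The 7 lower genes included Cyp2c69, which edgeR did not test. With limma's voomWithQualityWeights, which called 2.39% of all genes lower and 3.83% higher, 3 were higher and 3 lower. The edgeR counts depended on WT replicate 3: without it, when 3.37% of all genes were called lower and 5.12% higher, 4 genes of the lists were higher and 7 lower.

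Of 29 tested genes of growth hormone and JAK-STAT signalling, 0 passed in edgeR and 1 was higher in DESeq2 (3.81% of all its genes). Their median log2 fold change was 0.06. Jak2, the kinase on the receptor, had 319 ± 40.3 (SD, n = 6) normalized counts in WT and 307 ± 38.9 (SD, n = 7) in Nod2-/- mice. The log2 fold change of Jak2 was -0.06 ± 0.10 (SE). Stat3, which relays interleukin 6 signals, had a log2 fold change of 0.34 ± 0.17 (adjusted p = 0.237 in edgeR), and its target Socs3, another inhibitor of cytokine receptors, 0.77 ± 0.44 (adjusted p = 0.308 in edgeR). Socs1 was near the floor at 3.33 ± 1.04 and 5.35 ± 4.04 normalized counts and was not tested. Lepr, the leptin receptor, whose family GHR belongs to, ranged from 18.6 to 99.1 normalized counts in WT (median 36.4) and 42.3 to 432.8 in Nod2-/- mice (median 110). Lepr passed in DESeq2 (adjusted p = 0.0159) but not in edgeR (log2 fold change 1.68 ± 0.52 SE, adjusted p = 0.0923), and the study tabulated it from these mice. Lifr, the receptor of leukaemia inhibitory factor, had a log2 fold change of -0.72 ± 0.26 (adjusted p = 0.126 in edgeR), and Prlr, the prolactin receptor, -0.36 ± 0.41 (adjusted p = 0.621 in edgeR), or -0.85 without Nod2-/- replicate 7, which had 2119.8 normalized counts.

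Of 12 tested genes of the IGF system, 0 passed in edgeR or DESeq2. In edgeR 1, Igf2bp2, was higher at an unadjusted p under 0.05 (12.9% of all genes). The median log2 fold change was 0.05. The binding protein genes spread widely within groups. Igfbp1, which fasting and stress induce, ranged from 310.3 to 4957.1 normalized counts in WT (median 487.7) and from 921.5 to 12567.3 in Nod2-/- mice (median 2667.7), with a log2 fold change of 1.11 ± 0.76 (SE). Igfbp2 had a log2 fold change of -0.43 ± 0.34 and Igfbp3, whose product joins IGF1 and the acid-labile subunit in the circulating complex, 0.61 ± 0.35.

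**Figure D4:**
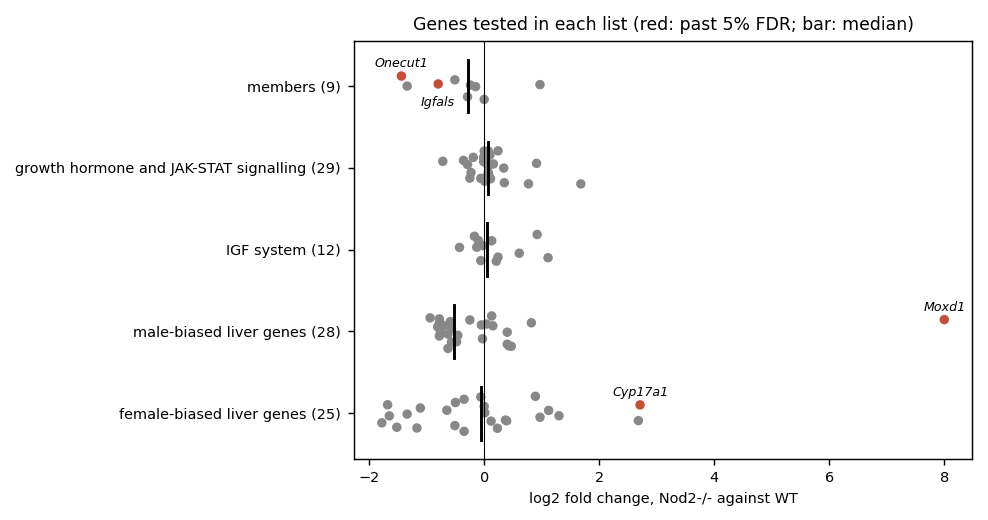
Log2 fold change (horizontal axis) of each tested gene in the 10-gene axis and in the 4 lists, with the number tested in brackets, medians as black bars and genes past 5% FDR in red. The medians were -0.29, 0.06, 0.05, -0.52 and -0.06 from top to bottom; vertical scatter within a row has no meaning.

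Genes that are male-biased in liver, and so depend on pulsed growth hormone, had a median log2 fold change of -0.52 over 28 tested genes, 19 with negative and 9 with positive values. Of these, 1 passed in edgeR, and it was higher in Nod2-/- mice (0.65% of all genes). Without adjustment, 8 were lower and 2 higher at p under 0.05, where 10.2% of all genes were lower and 12.9% higher. By DESeq2, 3 were lower (Ces3b, Susd4 and Hsd17b2) and 1 higher, against 3.45% and 3.81% of all its genes. Moxd1, a monooxygenase-like gene, had 0 to 8.13 normalized counts in WT mice (median 3.42) and 22.5 to 2071.7 in Nod2-/- mice (median 795.8). The log2 fold change of Moxd1 was 8 ± 1.02 (SE), adjusted p = 0.00102 in edgeR, with no overlap between groups (0.753% of genes tested had all Nod2-/- mice above WT mice). Moxd1 passed in each of the 13 fits without 1 mouse. Its change was against the direction of the list's median, and it is among the genes the study tabulated from these mice. Cyp2d9 had a log2 fold change of -0.57 ± 0.21 (adjusted p = 0.135 in edgeR), the bile acid and oxysterol hydroxylase gene Cyp7b1 -0.63 ± 0.22 (adjusted p = 0.126 in edgeR) and the organic anion transporter gene Slco1a1 -0.71 ± 0.26 (adjusted p = 0.131 in edgeR). Cyp4a12a, a fatty acid hydroxylase gene, had -0.76 ± 0.35, the steroid dehydrogenase gene Hsd3b5 -0.78 ± 0.49 and the urinary protein gene Mup7 -0.94 ± 0.65. Values were positive for Cspg5, which encodes a proteoglycan (0.82 ± 0.36, unadjusted p = 0.0385 in edgeR), the fatty acid elongase gene Elovl3 (0.47 ± 0.60) and the urinary protein gene Mup20 (0.43 ± 0.57), and none of these passed.

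These values came unequally from the mice. Against the WT mean, the median log2 difference of the 28 male-biased genes was -1.65 in Nod2-/- replicate 7 and -1.22 in replicate 4, -0.51 in replicate 6, and between -0.22 and 0.10 in the other 4 Nod2-/- mice, where WT mice lay between -0.21 and 0.19. Replicate 7 was the lowest of all 13 mice in 18 of the 28 genes (64.3%), where it was lowest in 8.48% of all genes tested. Replicates 7 and 4 also had the highest summed neutrophil markers, 71539.4 and 17351.1, whose part in these values was not tested. Most of the sum in replicate 4 was Lcn2 (15765.5), followed by Prtn3 (1222.6). Its S100a8, S100a9, Ngp, Ltf, Camp, Elane, Mpo, Mmp8, Csf3r and Ly6g were below those of replicate 5, and its Cxcr2 and Retnlg slightly above. Taking the difference of mean logs between groups, the list's median was -0.57 with all 7 Nod2-/- mice, -0.49 without replicate 7 and -0.29 without replicates 4 and 7. Only some members followed these mice. The lowest Ghr values of all 13 were in Nod2-/- replicates 4, 6 and 7 (4266.2, 5894.2 and 7077.8 normalized counts). Replicate 4 also had the lowest Igfals and Stat5b of all 13, and replicate 7 the lowest Onecut1. In replicate 7, however, Igf1, Socs2 and Cish were each next to the highest of the Nod2-/- mice.

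**Figure D5:**
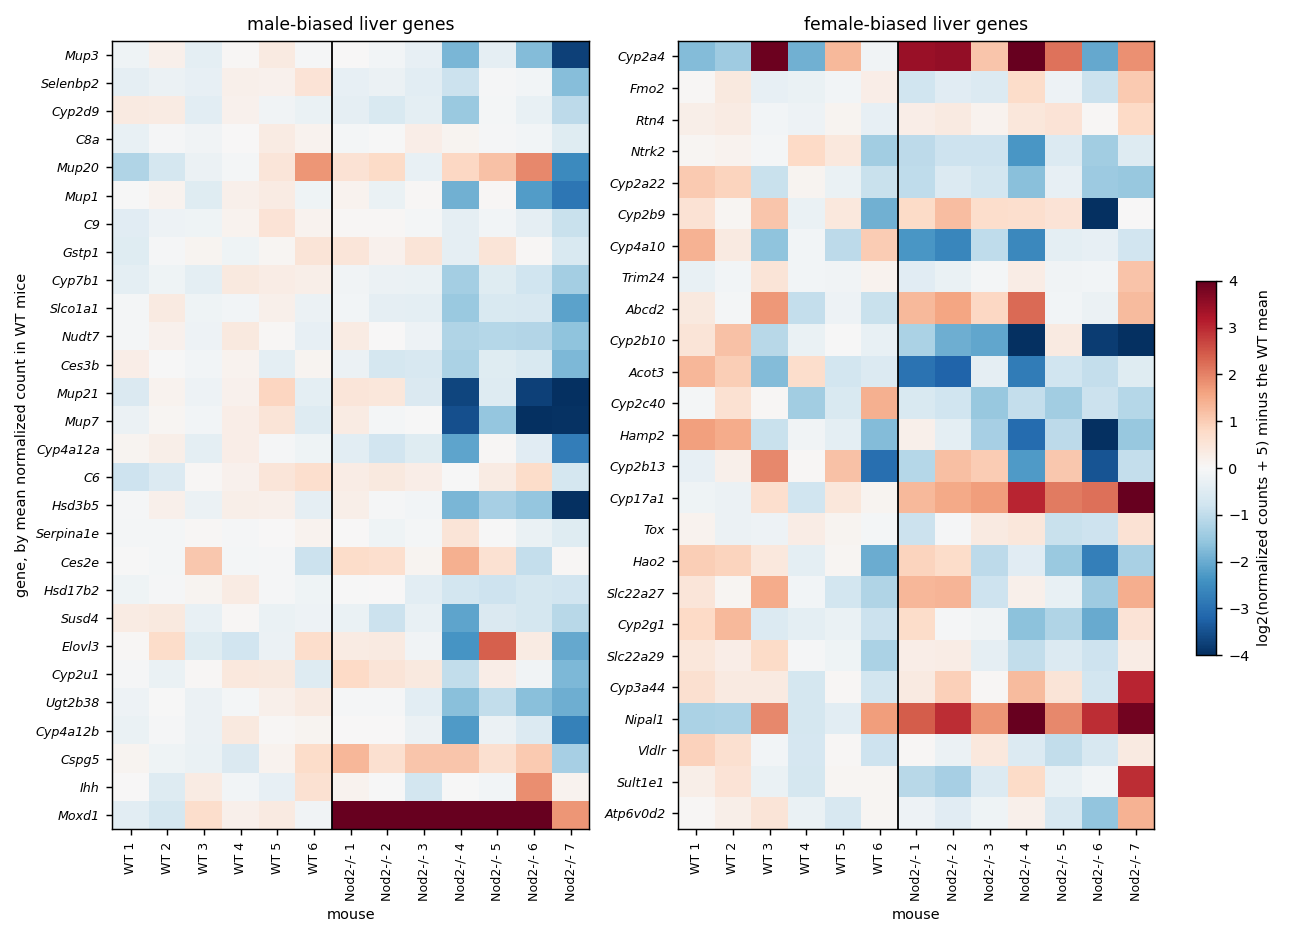
Log2(normalized counts + 5) minus the WT mean for 28 male-biased and 25 female-biased genes (rows, by WT level) in each mouse (columns, WT left of the line), with colours limited at a difference of 4 in either direction. Nod2-/- replicate 7 was lowest in 18 of the 28 male-biased genes, and replicates 4 and 6 were low for several of them.

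Female-biased genes had a median log2 fold change of -0.06 over 25 tested genes. By the difference of mean logs the list's median was -0.25 (17 genes lower and 8 higher), -0.39 without Nod2-/- replicate 7 and -0.48 without replicates 4 and 7. In edgeR 1 passed and was higher (0.65% of all genes). Without adjustment 4 were higher and 7 lower at p under 0.05, where 12.9% of all genes were higher and 10.2% lower. By DESeq2, 2 tested genes were higher (Cyp17a1 and Nipal1) and 3 lower (Cyp2a22, Cyp2c40 and Ntrk2), against 3.81% and 3.45% of all its genes. Cyp17a1, a steroid hydroxylase gene, ranged from 40.6 to 120.2 normalized counts in WT mice (median 72.4) and from 187.2 to 1612.2 in Nod2-/- mice (median 331.4). The groups did not overlap, as for 0.753% of genes tested in this direction. Its log2 fold change was 2.71 ± 0.51 (SE), adjusted p = 0.026 in edgeR, and 2.08 without Nod2-/- replicate 7. The Cyp17a1 call was lost without WT replicate 1, 2, 4 or 5 (2.66, 2.65, 2.58 and 2.80) and without both lung-marker WT mice (2.48), and the study tabulated this gene from these mice. Nipal1, a magnesium transporter gene, had a log2 fold change of 2.68 ± 0.69 (adjusted p = 0.0656 in edgeR). It too is among the genes the study tabulated. Cyp2b9 (0.23 ± 0.58), Cyp2b13 (-0.50 ± 0.81) and Cyp2a4 (1.12 ± 1), P450 genes known as female-biased, did not pass; Cyp2a4 had a log2 fold change of 3.02 (adjusted p = 0.0507 in edgeR) without WT replicate 3, and Cyp2b10, a P450 induced through the receptor CAR, had -1.78 (adjusted p = 0.148 in edgeR). The classical female-specific genes A1bg and Sult2a1 were near the floor in both groups, at means of 1.52 and 1.39 normalized counts for A1bg and 2.87 and 2.07 for Sult2a1. Nod2-/- replicate 7 was the highest of the 13 mice in 8 of the 25 genes (32%), where it was highest in 11.7% of all genes tested. Replicate 6 was the lowest in 9 of the 25 (36%, against 7.91% of all genes), with a median log2 difference of -0.93 from the WT mean. WT replicate 1 was the highest in 6 of the 25 (24%, against 5.46% of all genes).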

How the data were processed

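Liver RNA of 6 WT and 7 Nod2-/- mice was sequenced. The reads had been trimmed by the authors (Trimmomatic 0.33) and mapped to GRCm38 (TopHat2 2.1.1), and the deposited values are whole-number counts per gene and mouse, without normalization; the counting program and its use of strand are not given in the sources used here. Depth was 14886273 to 20579984 counts in WT and 13824780 to 19391431 in Nod2-/- mice, and 1 entry without an identifier was left out. Within a genotype, all 36 pairs of libraries differed beyond sampling noise (chi-square over its degrees of freedom from 11.7 to 182), and each library was its own sample.

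Genes kept by filterByExpr were tested in R 4.3.3 with the quasi-likelihood functions of edgeR 4.0.16 (TMM, glmQLFit and glmQLFTest, two-sided, no covariate; Benjamini-Hochberg threshold 0.05). The SE is the size of the log2 fold change divided by the root of the F statistic, and 95% intervals are normal intervals from it. For single members, normalized counts were compared with an exact permutation test (two-sided), and pairs were correlated with 100000 permutations of log2 CPM (prior count 2). Alternatives were DESeq2 1.42.0 (the study's tool), voomWithQualityWeights of limma 3.58.1, RLE normalization, no filter, a minimum of 10 counts per mouse, a block for the replicate number, a robust fit, removal of the 20 most abundant genes and leaving out each mouse; leaving out WT replicates 2 and 4, or WT replicate 3 and Nod2-/- replicate 7, was chosen after seeing the data. The edgeR, DESeq2 and voom fits were also run on simulated counts with the same dispersion for every gene and no outlying mice. That run does not show how they behave at the spread between mice seen here. Positions and exon lengths are GENCODE release M21, and promoters are RefSeq's on GRCm38.p6.

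The members and lists were chosen with earlier results of these data known. Named genes are the members, in each list those past 5% FDR, the 3 largest changes (average log2 CPM 1 or more) and a fixed set of known genes; genes named for DESeq2 calls or an unadjusted p, and marker genes of hepatocytes and other cells, were added after their values were seen. The labels give 30 weeks on the diet, used here. Results for a gene of the female-biased list are not reported here, and it is in no count of that list. The p-values set a difference between genotypes, or a correlation, against the variation between mice.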

Additional observations from a re-analysis of the deposited data

Results flagged for a closer look

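In 76 groups of 6 or 7 mice (38 genes in both genotypes), 14 had a mouse farther from the others than Dixon's 95% limit allows. That limit assumes normally distributed values, which counts near the floor or with a long upper tail are not. Some of the 38 genes were also chosen for large changes in these data, so the 14 cannot be set against a rate by chance. Among the axis genes these were Socs2 in WT replicate 6 (1233.9 normalized counts, next 570.1) and Cux2 in Nod2-/- replicate 7 (51.9, next 6.98). Nod2-/- replicate 7, the library with the highest neutrophil markers, was also far from its group for Cyp17a1 (1612.2 normalized counts), Prlr (2119.8) and A1bg (4.9). Nod2-/- replicate 4 was far above its group for Igfbp1 (12567.3 normalized counts) and Lepr (432.8), and replicate 5 for Elovl3 (3746.5) and Cyp2b10 (331.4). WT replicate 6 was far above the other WT mice for Igfbp2 (11077.4 normalized counts) and Mup20 (46851.1), and WT replicate 3 for Cyp2a4 (12621.8). Sult2a1, near the floor elsewhere, had 14.5 normalized counts in WT replicate 3 and 8.46 in Nod2-/- replicate 1.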

How the results depend on the processing

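The log2 fold changes of Ghr, Igf1, Igfals, Cish, Stat5b, Bcl6 and Onecut1 kept their sign in all alternatives run. Of the 2 lower members, 0 were called with the replicate block, 1 with the robust fit, 0 to 2 when 1 mouse was left out, 0 without the lung-marker WT mice and 1 without WT replicate 3 and Nod2-/- replicate 7. The replicate numbers of the genotypes share only a number (correlations of same-numbered mice -0.30 to 0.30); with the replicate block 35 genes were called in all. Of the other axis genes, the 0 called lower became 7 with DESeq2, 3 with voomWithQualityWeights, 1 with no filter, 0 to 7 when 1 mouse was left out (7 without WT replicate 3) and 1 without WT replicate 3 and Nod2-/- replicate 7. The 2 called higher became 4 with DESeq2, 1 with at least 10 counts in every mouse, which removes Moxd1, 1 with the block, 1 to 4 when 1 mouse was left out, 1 without the lung-marker WT mice and 4 without WT replicate 3 and Nod2-/- replicate 7. The sign of Socs2 reversed without WT replicate 6 (log2 fold changes -0.81 to 0.22 and mean differences -213.2 to 59.4 normalized counts when 1 mouse was left out). That of Stat5a, at 0.00, reversed with DESeq2 (-0.02), voomWithQualityWeights (-0.04), RLE, no filter or the block (-0.01 each), without the lung-marker WT mice (-0.05), on log2 CPM (-0.01) and when 1 mouse was left out (log2 fold changes -0.11 to 0.11; mean differences -16.8 to 16.8 normalized counts). Without the 2 mice farthest from the median, r was -0.77 for Bcl6 and Cish, -0.32 for Bcl6 and Socs2 and 0.43 for Igf1 and Socs2, none past the adjusted threshold. Other causes of these shifts were not tested, and genes such as Cux2, Socs1 and Sult2a1 are limited by depth.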

Other observations

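Cyp2c69, a P450 gene of the female-biased list chosen here after its values were seen, did not pass the filter on low counts and had 2 levels among WT mice. WT replicates 1, 2, 3 and 6 had 596.6, 868.4, 408.5 and 908 normalized counts, and WT replicates 4 and 5 had 7.67 and 3.31, within the range of 0.98 to 9.97 of the 7 Nod2-/- mice. DESeq2 called the gene lower (adjusted p = 8.11e-09). The study tabulated it from these mice. It lies on chromosome 19 among near-identical Cyp2c genes, so reads may be shared with its copies.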
